A study of Mus musculus with 48 samples.

Results

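The transcripts of 9 Krüppel-like factor genes, *Klf2*, *Klf3*, *Klf4*, *Klf6*, *Klf7*, *Klf9*, *Klf10*, *Klf11*, and *Klf13*, were followed from splenic monocytes to red pulp macrophages (RPMs). They are named members of the KLF family, taken from the 54735 genes counted in each RNA-seq library. They were chosen with earlier results of these data known and are not the whole family; 7 further KLF genes, among them *Klf12* and *Klf15*, are described separately. All 9 were among the 12842 genes kept over all libraries for having enough counts. The study asked how the cytokine IL-33 and its receptor subunit IL1RL1 bear on the development of RPMs, the splenic macrophages that take up aged erythrocytes and recycle their iron. Cells were sorted from the spleens of male Balb/c mice aged 10 weeks, and 3 populations were sequenced from each of 4 wild-type (WT) mice and 4 mice labelled IL1RL1-/- (written *Il1rl1*-/- here), 24 libraries in all. The gates were Ly6Glo CD11bhi F4/80- for monocytes, Ly6Glo CD11bhi F4/80lo for the intermediate pre-RPMs, and Ly6Glo CD11blo/- F4/80hi for RPMs. No group had been given a treatment, the groups share the Balb/c strain, and each library came from a single mouse. The 24 chromatin accessibility samples of the study were not analysed here.

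The total count on genes was 3562367 to 6559454 read pairs per library, with a median of 4728764.5, and levels are given in CPM, the counts of a gene relative to those of its library, scaled between libraries by the TMM method. RPM libraries carried the markers of their label, whereas monocyte markers set both CD11bhi populations apart from RPMs but did not single out monocytes. The summed level of 11 RPM marker genes was 6735 ± 782 CPM (mean ± SD, n = 4, as for all such values) in WT RPMs, 227 ± 76.7 in WT pre-RPMs, and 94.7 ± 37.9 in WT monocytes, led in RPMs by *Slc40a1*, which encodes the iron exporter ferroportin. The summed level of 8 monocyte marker genes was 1705 ± 1058 CPM in WT monocytes, 2808 ± 510 in WT pre-RPMs, and 37.4 ± 23.8 in WT RPMs, with *Fn1* the most abundant in each. Monocyte libraries also held transcripts of other leukocytes: 7 natural killer cell markers, led by *Gzma*, summed to 1294 ± 586 CPM in WT monocytes and 1026 ± 457 in monocytes labelled *Il1rl1*-/-, and 8 neutrophil markers, led by *S100a9*, to 1616 ± 756 and 1691 ± 471 CPM. No marker of either list was at 3 counts or less in every monocyte library. RPM libraries held erythroid transcripts, led by *Hbb-bs*, at 8660 ± 9740 CPM in WT, an SD as large as the level itself. These are bulk libraries, so that fewer cells of a type and less RNA per cell cannot be told apart.

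The gene that separates the genotypes was counted in every library. *Il1rl1*, at chr1:40429570-40465415 of GRCm38 on the plus strand, was at 4.30, 3.81, 2.76, and 1.96 CPM in WT monocytes of mice 1, 2, 3, and 4 and at 12.6, 15.4, 15.3, and 13.2 in monocytes labelled *Il1rl1*-/-. It was likewise higher in the pre-RPM libraries labelled *Il1rl1*-/- (11.9, 12.9, 12.5, and 12.2 CPM) than in those labelled WT (4.203, 3.95, 3.20, and 5.73 CPM). In RPMs it was at 1.06, 1.84, 1.88, and 3.01 CPM in WT and at 0.225, 1.15, 0.661, and 1.28 CPM in libraries labelled *Il1rl1*-/-. The level was thus higher with the label of deletion in both CD11bhi populations. The counts cover all exons of the gene, and those behind these reads were not examined, so that they do not check the labels, and genotypes are named by their labels throughout. *Gata2*, a transcription factor listed among the basophil and mast cell markers and named here after its values were seen, was lower with that label in pre-RPMs, at 9.34, 4.74, 23.6, and 12.2 CPM in WT and 0.949, 1.53, 0.896, and 2.43 CPM in libraries labelled *Il1rl1*-/-. The groups did not overlap (log2 fold change −3.01, SE 0.45, edgeR adjusted p = 0.00328). The sum of the 6 basophil and mast cell markers was at 17.5, 11.1, 56.8, and 27.95 CPM in WT pre-RPMs and 3.32, 5.11, 3.88, and 5.05 CPM in those labelled *Il1rl1*-/-. *Gata2* is itself in this sum and its most abundant gene in WT pre-RPMs (mean 12.5 CPM), so that the sum moves with it in part by construction. Among the other genes of the sum, *Hdc* was at 6.96 and 1.90 CPM. Its groups overlapped, and it did not pass the test (log2 fold change −1.915, SE 0.48, edgeR adjusted p = 0.109). *Ms4a2* was at 4.59 and 0.378 CPM, *Cpa3* at 2.62 and 0.281 CPM, *Mcpt8* at 1.03 and 0.332 CPM, and *Fcer1a* at 0.674 CPM and at 0 in every library. The part of such cells in the *Gata2* difference was not tested.

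KLF proteins share 3 zinc fingers at their C terminus that bind CACCC elements and GC-rich boxes in promoters and enhancers, and they differ in the N-terminal part that recruits coactivators or corepressors. KLF2 keeps lymphocytes, endothelium, and monocytes in a quiescent state and is induced through the kinase ERK5 and MEF2 factors. KLF4 is required for inflammatory monocytes and promotes monocyte commitment of myeloid progenitors. KLF6 and KLF7 form a pair of closely related activators, with KLF6 known in macrophages for promoting inflammatory gene expression. KLF3 is a repressor that acts through the corepressor CtBP, whereas KLF9, KLF10, KLF11, and KLF13 bind the SIN3 corepressor, KLF9 being induced by glucocorticoids and KLF10 and KLF11 by TGF-β.

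In the deposited annotation (GRCm38), *Klf2* lies at chr8:72319033-72321656 on the plus strand and *Klf4* at chr4:55527143-55532466 on the minus strand. The other 7 genes are on chromosomes 13 (*Klf6*), 1 (*Klf7*), 5 (*Klf3*), 19 (*Klf9*), 15 (*Klf10*), 12 (*Klf11*), and 7 (*Klf13*), so that no pair of the 9 shares a chromosome. *Klf7*, at chr1:64029447-64122282, is on the same chromosome as *Il1rl1*. RefSeq promoters on GRCm38.p6 were matched for 8 of the 9 genes, all but *Klf10*, and the 250 bases before the RefSeq start were searched on both strands for CACCC, for the GC box GGGCGG, and for the consensus site of MEF2, matches of different motifs being counted separately where they overlap. The promoters of *Klf2* and *Klf4* are shown because these were the members with the largest falls in RPMs, and that of *Klf15*, a family member outside the 9, because its transcript appeared only there at more than 3 counts. Capitals mark the CACCC element and the GC box, read on either strand, and, in *Klf2* alone, the MEF2 match. Each is written 5′ to 3′ on the strand of its gene and ends at the last base before the RefSeq start, or, for *Klf2*, before the gene's start in the deposited annotation.
*Klf2*, chr8:72318812-72319032, plus strand: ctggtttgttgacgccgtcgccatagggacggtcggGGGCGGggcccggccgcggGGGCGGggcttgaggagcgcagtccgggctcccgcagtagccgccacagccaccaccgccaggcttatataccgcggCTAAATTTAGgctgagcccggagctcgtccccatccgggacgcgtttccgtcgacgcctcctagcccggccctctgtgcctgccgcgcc
*Klf4*, chr4:55532476-55532725, minus strand: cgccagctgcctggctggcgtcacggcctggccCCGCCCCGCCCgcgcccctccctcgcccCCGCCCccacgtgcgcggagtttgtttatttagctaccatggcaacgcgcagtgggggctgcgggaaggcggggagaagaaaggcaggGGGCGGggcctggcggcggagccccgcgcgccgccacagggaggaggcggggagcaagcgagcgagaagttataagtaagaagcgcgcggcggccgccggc
*Klf15*, chr6:90462326-90462575, plus strand: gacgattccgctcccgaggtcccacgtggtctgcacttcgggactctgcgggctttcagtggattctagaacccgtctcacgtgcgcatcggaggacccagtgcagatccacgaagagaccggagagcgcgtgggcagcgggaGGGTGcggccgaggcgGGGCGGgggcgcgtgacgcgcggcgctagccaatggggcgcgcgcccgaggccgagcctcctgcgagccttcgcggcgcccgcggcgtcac

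The *Klf2* stretch holds 2 GC boxes and 1 MEF2 match, CTAAATTTAG, whose first base lies 118 bases before the RefSeq start. The *Klf4* stretch holds 4 GC boxes, of which the first 2 overlap by 1 base, and neither of the other motifs. That of *Klf15* holds 1 GC box and 1 CACCC element. Over the 8 members, the 250 bases held from 0 CACCC elements in *Klf4*, *Klf6*, and *Klf11* to 5 in *Klf3*, and from 0 GC boxes in *Klf9* to 6 in *Klf3*, and *Klf2* alone had a MEF2 match. Of 32851 RefSeq promoters, 52% held CACCC, 32.7% held GGGCGG, and 2.92% held the MEF2 consensus in the same window. The GC content of the 8 windows was 59.2% to 78.4%, above the median of 52.4% over all promoters. A match describes these letters only, and binding was not measured.

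The levels of the 9 transcripts divided the libraries by cell type, with the means of 8 genes lowest in RPMs and that of *Klf7* highest there. *Klf9*, low in each population, overlapped between cell types in WT. *Klf2* was the most abundant per length of exon in monocytes, at 105 ± 16.4 CPM per kb in WT and 116 in libraries labelled *Il1rl1*-/-. It made up 51.8% of the summed CPM per kb of the 9 genes in WT monocytes and 42.2% in WT pre-RPMs, but 21.8% in WT RPMs. *Klf13* came next in WT monocytes (24.6 CPM per kb) and pre-RPMs (33.3 CPM per kb). *Klf6* (20.9 and 21.6 CPM per kb) and *Klf4* (19.1 ± 8.07 and 22.2 ± 4.94 CPM per kb) followed, differing by less than the SD of *Klf4* in both, while *Klf9*, *Klf7*, and *Klf11* were each below 5 CPM per kb in both populations. In RPMs the order was different: *Klf2* (10.4 ± 4.65 CPM per kb in WT), *Klf6* (10.1), and *Klf13* (8.38) were nearly level, *Klf6* came first in libraries labelled *Il1rl1*-/- (10.7, or 23.8% of the sum), and *Klf4* dropped from 22.2 to 1.58 CPM per kb in WT. The summed level of the 9 genes was 203 CPM per kb in WT monocytes, 191 in WT pre-RPMs, and 47.9 in WT RPMs, and 215, 191, and 44.9 in libraries labelled *Il1rl1*-/-.

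**Figure D1:**
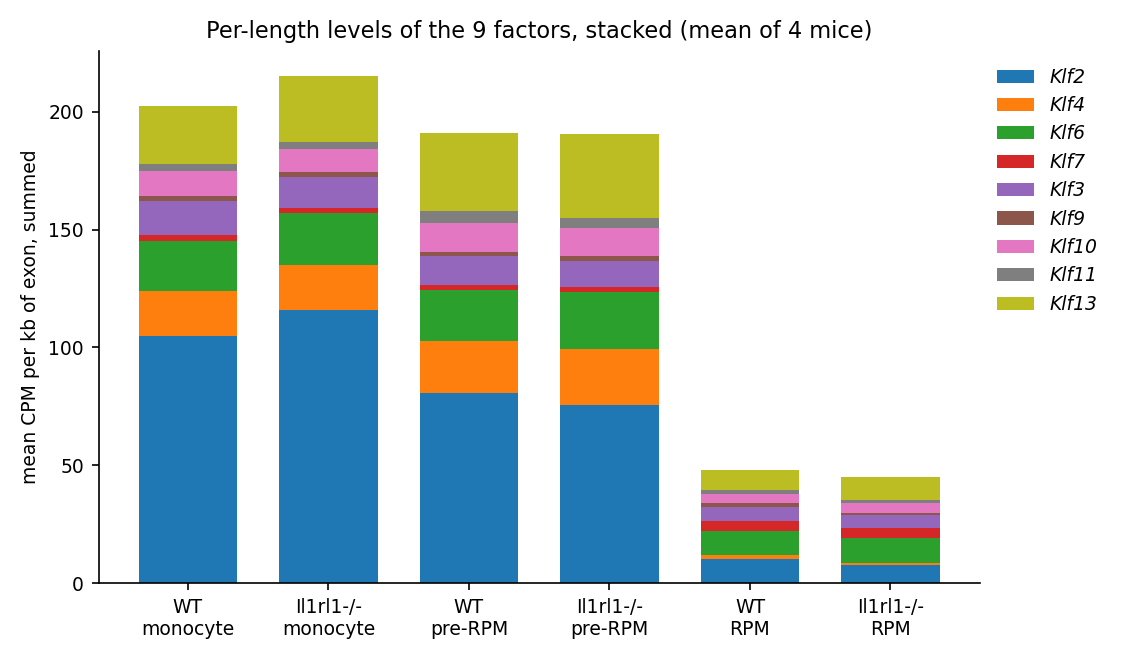
Mean TMM-scaled CPM per kb of exon (vertical axis) of the 9 genes, stacked for each of the 6 groups of 4 mice. The stacks of both RPM groups, at 47.9 and 44.9, are far below the 4 others, which lie between 191 and 215, and the *Klf2* segment shrinks the most.

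*Klf2* was high in monocytes, lower in pre-RPMs, and lowest in RPMs, with no overlap between cell types within either genotype. Its CPM in mice 1, 2, 3, and 4 was 169, 237, 179.9, and 189 in WT monocytes, 164, 147, 154, and 131 in WT pre-RPMs, and 23.0, 29.2, 9.66, and 15.3 in WT RPMs. Libraries labelled *Il1rl1*-/- had 279.8, 220.2, 194, and 163 in monocytes, 159, 138, 144, and 118 in pre-RPMs, and 22.3, 14.4, 7.93, and 11.8 in RPMs. Every pre-RPM library was thus below every monocyte library of its genotype, and every RPM library far below both. *Klf2* fell from pre-RPMs to RPMs by 2.98 on the log2 scale in WT (SE 0.24, 7.87-fold, quasi-likelihood test of edgeR, Benjamini-Hochberg adjusted p = 1.16e-07), and by 3.36 in libraries labelled *Il1rl1*-/- (SE 0.21, 10.3-fold, adjusted p = 1.88e-09 in edgeR).

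*Klf4* was at a like level in monocytes and pre-RPMs and had the largest fall of the 9 genes in RPMs. In WT it was at 43.6, 36.7, 91.9, and 60.9 CPM in monocytes, 62.3, 64.0, 89.5, and 54.9 in pre-RPMs, and 7.02, 3.88, 3.75, and 4.64 in RPMs. Those labelled *Il1rl1*-/- had 41.3, 42.2, 81.5, and 68.2 CPM in monocytes, 76.4, 68.6, 76.5, and 68.9 in pre-RPMs, and 4.28, 3.45, 2.64, and 1.92 in RPMs. Monocytes and pre-RPMs overlapped in both genotypes, and the RPM values rest on 9 to 33 counts per library. The fall from pre-RPMs to RPMs was 14.3-fold in WT (log2 fold change −3.84, SE 0.21, edgeR adjusted p = 2.35e-09) and 24.2-fold in libraries labelled *Il1rl1*-/- (log2 fold change −4.60, SE 0.15, edgeR adjusted p = 1.73e-12).

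*Klf6* and *Klf7*, the pair of closely related activators, parted ways. *Klf6* was at 97.7, 75.6, 102, and 91.2 CPM in WT monocytes, 97.4, 92.8, 95.2, and 94.4 in WT pre-RPMs, and 40.6, 41.5, 49.4, and 45.2 in WT RPMs, that is, level in both CD11bhi populations and lower in all RPM libraries. *Klf7* was at 25.0, 23.5, 16.1, and 19.4 CPM in WT monocytes, 20.6, 18.7, 14.7, and 16.01 in WT pre-RPMs, and 34.7, 31.7, 40.0, and 30.6 in WT RPMs. It was thus the only member with every RPM library above every library of the other cell types, also in libraries labelled *Il1rl1*-/-, where RPMs had 28.4, 33.8, 30.8, and 34.4 CPM against 12.8 to 17.8 in monocytes and pre-RPMs. From pre-RPMs to RPMs, *Klf6* fell by 1.15 on the log2 scale in WT (SE 0.10, edgeR adjusted p = 3.73e-07) and by 1.24 in libraries labelled *Il1rl1*-/- (SE 0.09, edgeR adjusted p = 8.66e-09). The log2 fold change of *Klf7* was 1.04 in libraries labelled *Il1rl1*-/- (SE 0.12, edgeR adjusted p = 2.78e-06), which passed the test, and 0.92 in WT (SE 0.14, edgeR adjusted p = 8.31e-05), under the fold threshold of 1. Without pre-RPM mouse 2, the value in libraries labelled *Il1rl1*-/- was 0.95, also under that threshold.

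**Figure D2:**
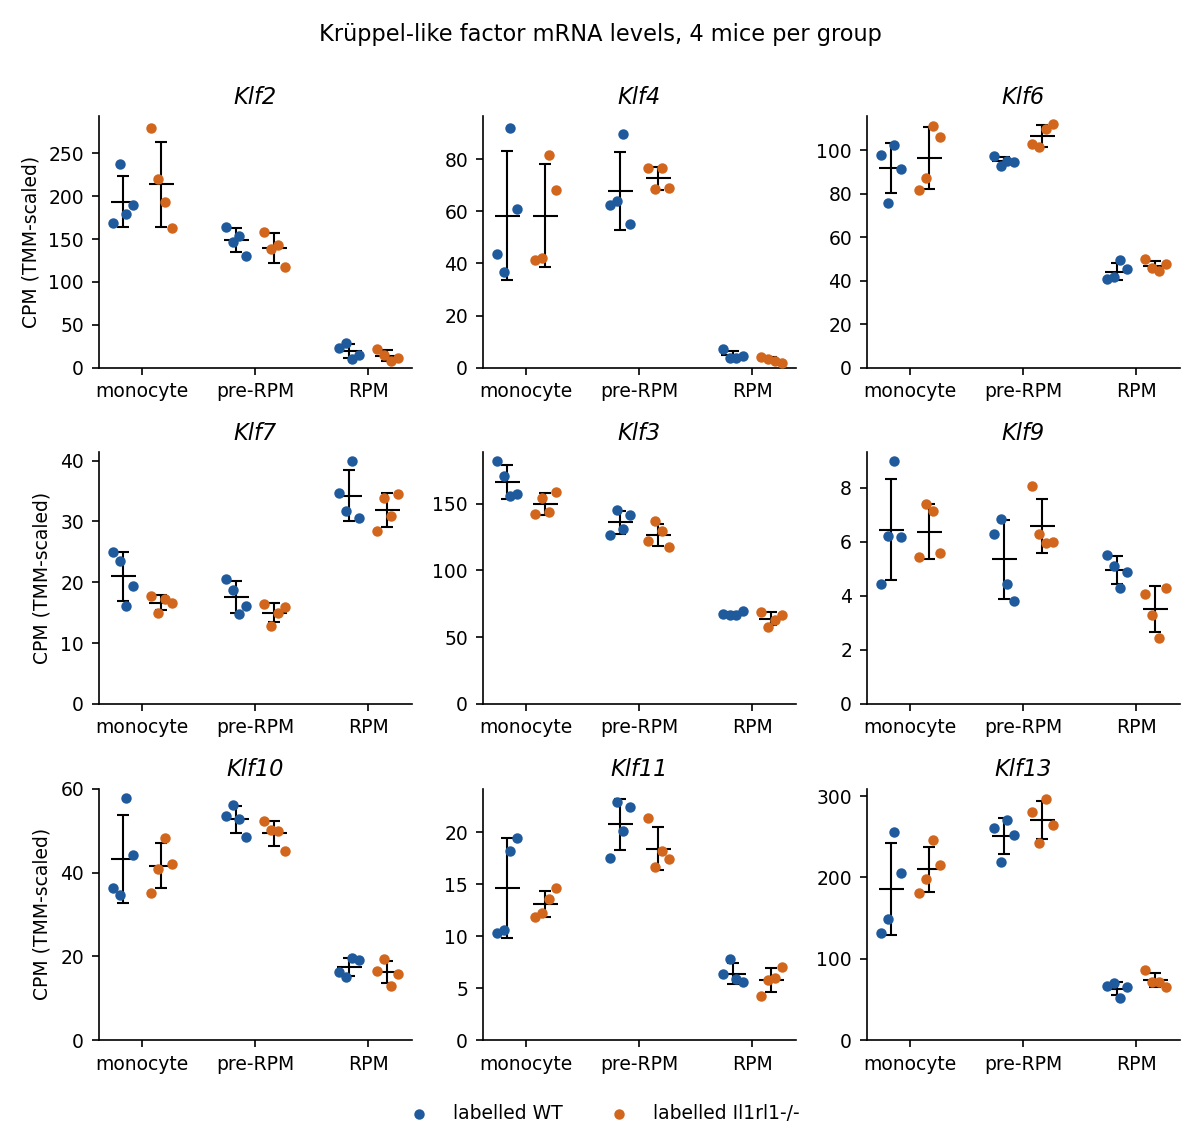
TMM-scaled CPM (vertical axis, starting at 0) of each of the 9 genes in every library, by cell type, with blue points for libraries labelled WT, orange points for those labelled *Il1rl1*-/-, and black bars for the mean ± SD of 4 mice. The RPM points lie below all others in every panel except those of *Klf7*, where they lie above, and *Klf9*, where they overlap with the rest in WT.

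*Klf3*, which encodes the CtBP-dependent repressor, had tight groups. WT monocytes had 182, 170.5, 156, and 157 CPM, WT pre-RPMs 127, 145, 131, and 141, and WT RPMs 67.4, 66.4, 66.8, and 69.6, so that the 4 RPM libraries nearly coincided. Groups did not overlap between cell types in either genotype, and its level in libraries labelled *Il1rl1*-/- was 149.8 ± 8.04 CPM for monocytes, 126 ± 8.58 for pre-RPMs, and 63.6 ± 4.89 for RPMs. It fell from pre-RPMs to RPMs by 1.06 on the log2 scale in WT (SE 0.10, edgeR adjusted p = 7.43e-07) and by 1.05 in libraries labelled *Il1rl1*-/- (SE 0.09, edgeR adjusted p = 1.72e-07). The latter call ended in one fit of all libraries and without RPM mouse 2, where *Klf3* was at −0.99 in both.

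Among the SIN3-binding factors, *Klf10*, *Klf11*, and *Klf13* had a common shape, with their highest means in pre-RPMs and their lowest in RPMs in both genotypes. *Klf9* had its highest mean in monocytes in WT (6.46 ± 1.87 CPM) and, within the spread of its monocytes, in pre-RPMs with the *Il1rl1*-/- label (6.58 ± 1.003 against 6.38 ± 1.02 CPM). *Klf13*, after *Klf2* the next in level per length in monocytes and pre-RPMs, was at 132, 149, 256, and 206 CPM in WT monocytes, 261, 219, 271, and 252 in WT pre-RPMs, and 65.9, 69.9, 51.8, and 64.9 in WT RPMs. Among WT monocytes, mouse 3 alone thus reached the pre-RPM range. *Klf13* fell 4.10-fold from WT pre-RPMs to WT RPMs (log2 fold change −2.04, SE 0.13, edgeR adjusted p = 9.98e-09), *Klf11* 3.31-fold (log2 fold change −1.73, SE 0.17, edgeR adjusted p = 8.59e-07), and *Klf10* 3.13-fold (log2 fold change −1.65, SE 0.12, edgeR adjusted p = 4.34e-08). The means behind these folds were 251 and 63.1 CPM for *Klf13*, 20.8 and 6.40 for *Klf11*, and 52.7 and 17.5 for *Klf10*. The folds in libraries labelled *Il1rl1*-/- were 3.82, 3.30, and 3.15, and each passed the same test. *Klf9*, at 6.30, 6.85, 4.43, and 3.82 CPM in WT pre-RPMs and 5.53, 5.11, 4.29, and 4.87 in WT RPMs, did not pass the test (log2 fold change −0.15, SE 0.25, edgeR adjusted p = 0.646). With the *Il1rl1*-/- label, its 4 RPM libraries (4.05, 3.28, 2.42, and 4.28 CPM) were below all pre-RPM libraries (8.07, 6.30, 5.97, and 5.99 CPM), and the log2 fold change was −0.96 (SE 0.24, edgeR adjusted p = 0.00374), just under the fold threshold.

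The members were called at the step from pre-RPM to RPM and not before it. Calls between cell types required an adjusted p below 0.01 together with a log2 fold change beyond 1 in either direction. In WT, 7 of the 9 members fell and 0 rose, where over the 11239 genes tested 10.7% were called lower and 14% higher. The median log2 fold change was −1.65 for the members and −0.00 for all genes, and 8 members did not overlap between the groups, as did 46.6% of all genes. In libraries labelled *Il1rl1*-/-, 7 fell and 1 rose (6 fell without RPM mouse 2, which ended the call of *Klf3*, and 0 rose without pre-RPM mouse 2, which ended that of *Klf7*), where of 11437 genes 11.5% were called lower and 14.5% higher, with a median of −1.66 for the members and 9 members without overlap against 49.4% of all genes. Within each mouse, RPMs were below pre-RPMs in 4 of 4 mice of either genotype for each of the 7 genes that fell, and *Klf7* was above in 4 of 4. When the fold change itself was tested against a log2 value of 1 (edgeR's glmTreat), 5 members passed as lower in WT, where 6.31% of all genes did, and 5 in libraries labelled *Il1rl1*-/-, where 7.36% did. Neutrophil markers were also lower in RPMs: 6 of 6 tested fell in each genotype, *S100a8*, *S100a9*, *Camp*, *Ltf*, *Ngp*, and *Retnlg*, and the sum of all 8 on the list went from 207 ± 29.7 to 14.9 ± 3.72 CPM in WT and from 259 ± 108 to 3.39 ± 1.74 CPM in libraries labelled *Il1rl1*-/-. The natural killer cell sum went from 119, 156.5, 104, and 83.9 CPM in pre-RPMs of WT mice 1, 2, 3, and 4 to 39.4, 52.5, 21.99, and 25.97 in RPMs. The erythroid sum rose instead, from 11.2, 10.0, 566, and 84.8 CPM to 1877, 1257, 22200, and 9306 in the same mice. The dendritic cell sum and the basophil and mast cell sum were lower in RPMs of each WT mouse. The part of these transcripts in the fall of the members was not tested.

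The step from monocyte to pre-RPM moved the members little. In WT, 0 of 9 were called by edgeR or by DESeq2, where over 11091 genes 3.25% were called lower and 0.316% higher. An unadjusted p under 0.05 was found for 4 members and for 31.9% of all genes. In libraries labelled *Il1rl1*-/-, 0 of 9 were called by either tool, where over 11196 genes 3.88% were called lower and 0.974% higher, and 5 had an unadjusted p under 0.05, against 30.6% of all genes. The log2 fold changes lay between −0.38 (*Klf2*, SE 0.14, edgeR adjusted p = 0.0818) and 0.50 (*Klf11*, SE 0.22, edgeR adjusted p = 0.141) in WT. In libraries labelled *Il1rl1*-/-, those of *Klf2* (−0.61, SE 0.16, adjusted p = 0.0222), *Klf11* (0.49, SE 0.14, adjusted p = 0.0306), and *Klf13* (0.37, SE 0.12, adjusted p = 0.0455) had an edgeR adjusted p under 0.05 and were well under the fold threshold. Per mouse, the pre-RPM library had the lower value of *Klf2*, *Klf3*, and *Klf7* and the higher value of *Klf11* and *Klf13* in 4 of 4 mice of both genotypes. *Klf2* and *Klf3* did not overlap between monocytes and pre-RPMs in WT, as did 21.1% of all genes, and these and *Klf11* did not in libraries labelled *Il1rl1*-/-, against 22.4%.

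The markers of other cells changed at this first step. All 7 natural killer cell markers fell in both genotypes, their sum going from 1294 to 116 CPM in WT and from 1026 to 46.2 CPM in libraries labelled *Il1rl1*-/-, and *Klrb1c* was at 3 counts or less in every pre-RPM library labelled *Il1rl1*-/-. The neutrophil sum went from 1616 to 207 CPM in WT, where 5 of 7 tested markers fell, and from 1691 to 259 CPM in libraries labelled *Il1rl1*-/-, where 7 of 8 fell, while *Retnlg* rose in both (log2 fold change 2.83 and 2.37). Of T cell markers, 2 of 5 tested fell in WT, their sum going from 114 to 23.8 CPM, and of plasma cell markers 2 of 4, from 568 to 240.1 CPM. In libraries labelled *Il1rl1*-/-, 2 of 4 T cell markers fell (92.9 to 14.02 CPM) and 2 of 5 plasma cell markers (1079 to 270.2 CPM). Of 4 dendritic cell markers tested, 1 fell in WT and 0 in libraries labelled *Il1rl1*-/-, and of 7 B cell markers 0 passed in either. Eosinophil markers went the other way, their sum going from 12.9 to 58.5 CPM in WT and from 15.2 to 46.3 CPM with the *Il1rl1*-/- label. *Ccr3*, which led the sum from pre-RPMs on, was the 1 marker of that list that rose at this step in each genotype. The sum went on to 319 and 347 CPM at the RPM stage through *Ccr3* alone (36.4 to 312 CPM in WT). *Siglecf* (5.19 to 1.01 CPM in WT), *Prg2* (11.1 to 5.81), *Il5ra* (5.20 to 0.367), and *Epx* (0.608 to 0.169) had lower means in RPMs than in pre-RPMs. The same was true of these with the *Il1rl1*-/- label. *Epx*, which encodes eosinophil peroxidase, was at 3 counts or less in every monocyte and RPM library. The basophil and mast cell sum went from 43.2 to 28.3 CPM in WT, where 0 of 4 tested passed, and from 23.0 to 4.34 CPM with the *Il1rl1*-/- label, where *Gata2* and *Hdc*, both of those tested, fell. Among WT monocyte libraries, the order of mice by *Klf4* (3, 4, 1, 2, from high to low) was that of the summed monocyte markers, at 2965, 2172, 1012, and 670 CPM, and the reverse of that of the summed natural killer cell markers, at 582, 1067, 1631, and 1894 CPM. In monocytes labelled *Il1rl1*-/-, the order by *Klf4* (3, 4, 2, 1) was likewise that of the monocyte markers (3457, 2603, 1726, and 1150 CPM) and the reverse of that of the natural killer cell markers (520, 821, 1187, and 1577 CPM). The RPM marker sum also had the order of *Klf4* among monocyte libraries of both genotypes, and the T cell sum had its reverse. The B cell sum had the reverse order in WT alone. The eosinophil, basophil and mast cell, erythroid, dendritic cell, and plasma cell sums followed neither the order of *Klf4* nor its reverse. The neutrophil sum did not follow them either. It was at 1982, 746, 2459, and 1277 CPM in WT mice 3, 4, 1, and 2. With the *Il1rl1*-/- label it was at 1760, 1951, 2046, and 1007 CPM in mice 3, 4, 2, and 1. The sort label names low Ly6G, a neutrophil antigen. The flow cytometry of the study also kept only cells low in CD11c, the natural killer antigen encoded by *Klrb1c*, and side scatter, and whether the sort for sequencing did so is not given in the sources used here. The part of these cells in the monocyte values of the members was not tested.

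**Figure D3:**
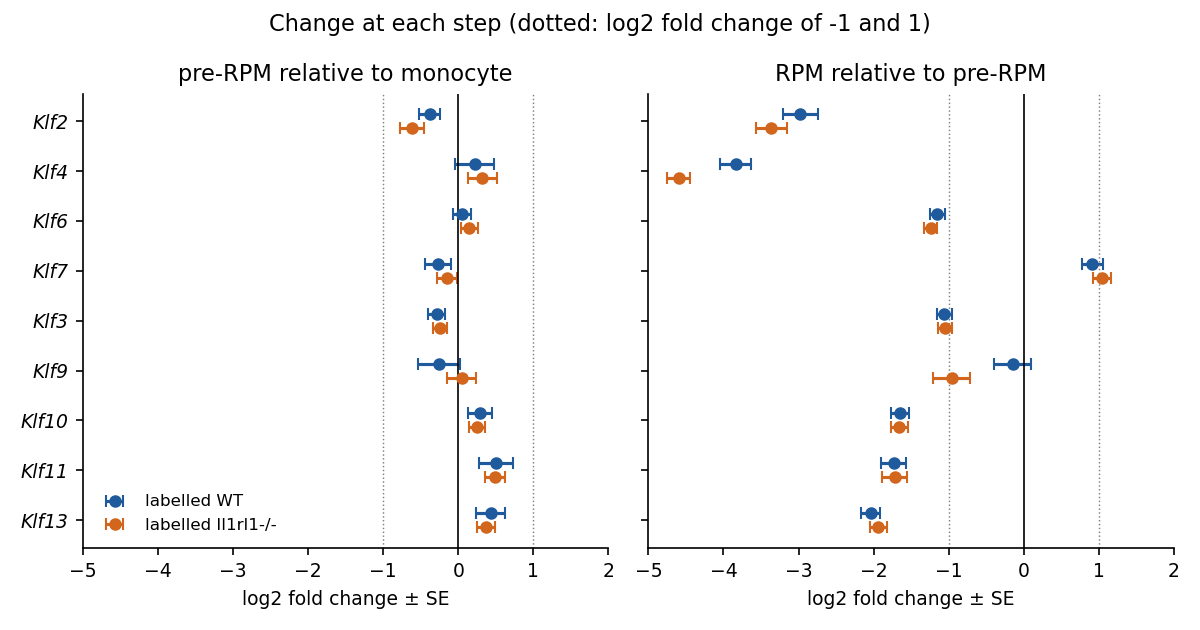
Log2 fold change ± SE (horizontal axis, edgeR, 4 mice against 4) of each of the 9 genes from monocyte to pre-RPM on the left and from pre-RPM to RPM on the right, with blue for WT and orange for libraries labelled *Il1rl1*-/-; dotted lines mark −1 and 1. All points on the left lie within the dotted lines, whereas on the right 7 genes lie to the left of −1 in both genotypes, *Klf4* farthest at −3.84 and −4.60, and *Klf7* lies near 1.

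Across the whole course, from monocyte to RPM, 7 of 9 members fell and 0 rose in WT (10.5% of 11607 genes were called lower and 13.4% higher), and the same numbers held for libraries labelled *Il1rl1*-/- (11.6% of 11633 genes lower and 14.3% higher). Tested against a log2 value of 1 with glmTreat, 3 members passed as lower in each genotype, where 5.63% of all genes did in WT and 7.64% in libraries labelled *Il1rl1*-/-. The smallest of these falls in WT were those of *Klf6* (log2 fold change −1.08, SE 0.13, edgeR adjusted p = 4.82e-05) and *Klf11* (−1.20, SE 0.26, edgeR adjusted p = 0.00265). *Klf11* lost its call without WT RPM mouse 4 (edgeR adjusted p = 0.0119). In libraries labelled *Il1rl1*-/-, *Klf6* (−1.04, SE 0.12) lost its call without monocyte mouse 3 (−0.96) or 4 (−0.995), which left 6 members that fell. *Klf7* was at 0.68 (SE 0.16, edgeR adjusted p = 0.00429) in WT and 0.94 (SE 0.12, edgeR adjusted p = 4.38e-05) in libraries labelled *Il1rl1*-/-. This comparison shares its RPM libraries with the step from pre-RPM to RPM, and its monocyte libraries with the first step. Groups did not overlap for 8 members in WT and 9 in libraries labelled *Il1rl1*-/-, against 44.5% and 46.9% of all genes.

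Among RPM libraries, *Klf2* varied between mice, with an SD of 8.59 CPM at a mean of 19.3 in WT. The order of WT mice by *Klf2* (2, 1, 4, 3, from high to low) was also that of the summed T cell markers (83.2, 72.1, 26.2, and 20.1 CPM) and that of the summed monocyte markers (70.1, 39.8, 22.0, and 17.7 CPM). The sums of B cell markers (123, 86.8, 54.3, and 36.2 CPM) and natural killer cell markers (52.5, 39.4, 25.97, and 21.99 CPM) had this order too. The order in RPMs labelled *Il1rl1*-/- (1, 2, 4, 3) was again that of both sums, at 45.7, 24.8, 19.3, and 15.2 CPM for T cell markers and 24.1, 15.9, 13.3, and 10.8 CPM for monocyte markers, and also that of the B cell and natural killer cell sums. Not all sums had the order of *Klf2*. In WT mice 2, 1, 4, and 3, neutrophil markers summed to 19.6, 15.5, 10.7, and 13.95 CPM and plasma cell markers to 267, 236, 132, and 141 CPM. These sums, the eosinophil sum, the basophil and mast cell sum, and the erythroid sum did not have it in either genotype. The dendritic cell sum had it in WT alone. In WT pre-RPMs, where *Klf2* was 7.87-fold higher than in RPMs, the T cell markers summed to 23.8 ± 6.53 CPM, against 50.4 ± 31.9 in RPMs, and the B cell markers to 64.8 ± 10.8 against 75.1 ± 38.2 CPM. The natural killer cell and monocyte sums were higher in WT pre-RPMs, at 116 ± 30.7 against 34.97 ± 13.9 CPM and 2808 ± 510.2 against 37.4 ± 23.8 CPM. The part of other cells in the *Klf2* left in RPM libraries was not tested.

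Between genotypes, 0 of the 9 members differed in any cell type by edgeR (adjusted p under 0.05), by DESeq2, or, without the mouse number as a block, at an unadjusted p under 0.05 in edgeR. Over all genes, the share called was 0.0614% (of 11405) for monocytes, 0.552% (of 10698) for pre-RPMs, and 0.233% (of 11150) for RPMs. When mouse numbers were entered as a block, the genes called rose from 7 to 27 in monocytes, from 59 to 145 in pre-RPMs (where not every same-numbered pair was correlated above 0.1), and from 26 to 81 in RPMs, and 0 members were among them. Without the block, 3.59%, 8.8%, and 7.27% of all genes had an unadjusted p under 0.05 in monocytes, pre-RPMs, and RPMs. In RPMs, every same-numbered pair was correlated above 0.1 (r from 0.149 to 0.182). Mice of different genotypes share only a number, so that the labels do not pair them and the block has no basis in the design. With it, *Klf2* in RPMs (log2 fold change −0.47, SE 0.17) had an unadjusted p of 0.0142 in edgeR. *Klf4* (−0.64, SE 0.29) had one of 0.0412, and the edgeR adjusted p-values were 0.399 and 0.583. In monocytes, too, every same-numbered pair was correlated above 0.1 (lowest r 0.118), and unadjusted p-values of the members under the block are not given for them. In RPMs, *Klf4* had the largest difference, at −0.66 on the log2 scale in libraries labelled *Il1rl1*-/- relative to WT (SE 0.31, unadjusted p = 0.0517, edgeR adjusted p = 0.685), which became −0.41 without WT mouse 1, the highest library. *Klf9* was at −0.51 (SE 0.25, edgeR adjusted p = 0.71) and *Klf2* at −0.48 (SE 0.32). The sums of other-cell markers in RPM libraries also varied between mice and labels, and their part in these differences was not tested. The 4 RPM libraries labelled *Il1rl1*-/- were below the 4 WT libraries for *Klf9* (the highest was 4.28 CPM, the lowest in WT 4.29), and in pre-RPMs those labelled *Il1rl1*-/- were above WT for *Klf6* (the lowest was 101 CPM, the highest in WT 97.4). These were the only members whose genotypes did not overlap, 1 in each of the 2 cell types, where 4.32% and 4.95% of all genes did not, and 0 members did so in monocytes, against 2.33%.

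**Figure D4:**
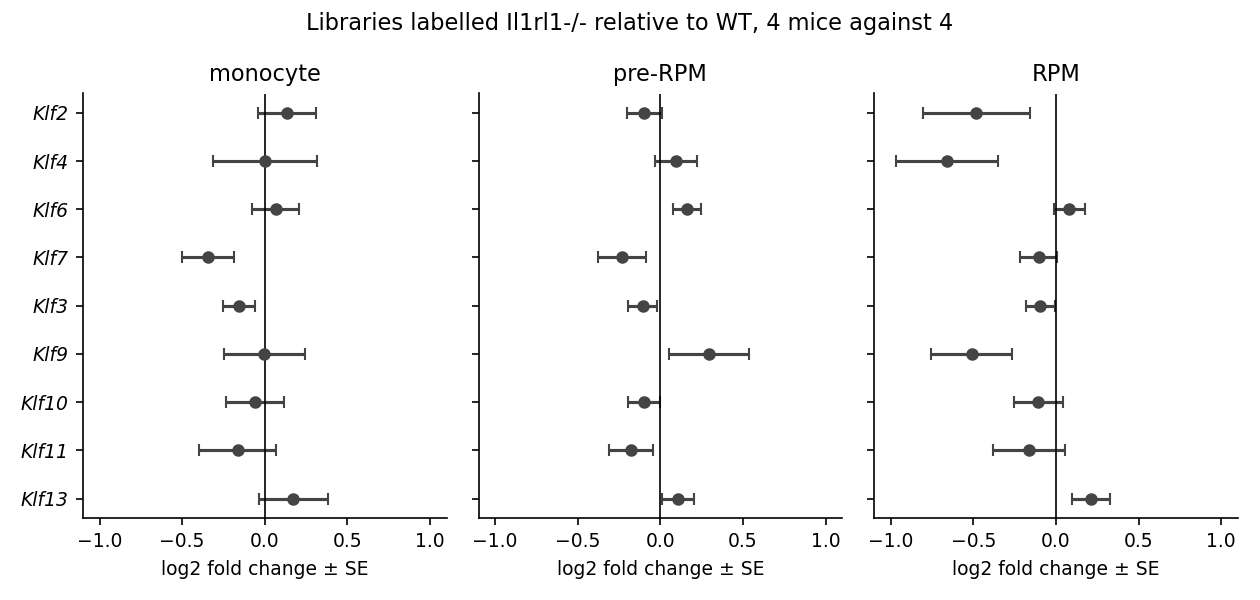
Log2 fold change ± SE (horizontal axis, edgeR, 4 mice against 4) of the 9 genes in libraries labelled *Il1rl1*-/- relative to WT, in monocytes, pre-RPMs, and RPMs. The point farthest from 0 is *Klf4* in RPMs at −0.66, and 0 of the 9 genes passed the test in any panel.

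The change of the members along the course was compared between genotypes with an interaction term. For the step from pre-RPM to RPM, 0 of 9 members passed in edgeR or DESeq2 (0.107% of 12150 genes did in edgeR, 13 genes, and 36 with the mouse number as a block), and 2 had an unadjusted p under 0.05, as did 7.52% of all genes. These were *Klf4*, whose change was lower by 0.75 in libraries labelled *Il1rl1*-/- (log2 difference −0.75, SE 0.31, unadjusted p = 0.0266, edgeR adjusted p = 0.581), and *Klf9* (−0.80, SE 0.33, unadjusted p = 0.0265, edgeR adjusted p = 0.581). The larger fold of *Klf4* in libraries labelled *Il1rl1*-/- was therefore not shown to differ from that in WT. For the step from monocyte to pre-RPM (0% of 11960 genes called by edgeR, 3.8% with an unadjusted p under 0.05, and 0 called by DESeq2) and for the whole course (0.0318% of 12592 genes, and 4.84% with an unadjusted p under 0.05), 0 of 9 members passed in edgeR or DESeq2 and 0 had an unadjusted p under 0.05.

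The other KLF genes included a transcript that appeared in RPMs. *Klf15*, which encodes a factor induced by glucocorticoids and known for amino acid and lipid metabolism, had 54, 48, 45, and 61 counts in RPMs of WT mice 1, 2, 3, and 4 and 59, 95, 61, and 46 in those labelled *Il1rl1*-/-. It had 0, 0, 0, and 1 counts in WT pre-RPMs, 0 in each pre-RPM library labelled *Il1rl1*-/-, and 0, 1, 3, and 1 in WT monocytes. Taking 3 counts per library as the most that a count of 0 allows, *Klf15* was at least 16.1-fold higher in WT RPMs than in WT pre-RPMs and at least 19.5-fold higher in those labelled *Il1rl1*-/-, and the rise passed the test in both (edgeR adjusted p = 2.52e-08 and 3.96e-08). With *Klf7* it shares the direction opposite to that of the 7 members that fell. Its mean in RPMs was 11.9 CPM in WT and 13.04 in libraries labelled *Il1rl1*-/-, which did not pass the test between genotypes (log2 fold change 0.14, SE 0.17, edgeR adjusted p = 0.932).

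*Klf12*, a CtBP-binding repressor, left earlier, at the step from monocyte to pre-RPM. It had 133, 98, 24, and 76 counts in WT monocytes and 2, 8, 3, and 0 in WT pre-RPMs (log2 fold change −4.12, SE 0.61, edgeR adjusted p = 0.00165), a call lost without WT pre-RPM mouse 1 (−3.93, with an adjusted p above 0.01). *Klf12* in libraries labelled *Il1rl1*-/- had 94, 59, 30, and 47 counts in monocytes and 2, 1, 2, and 1 in pre-RPMs. In both genotypes, the mouse with the fewest *Klf12* counts among monocytes was mouse 3, which also had the lowest sum of natural killer cell markers, and the part of those cells in its level was not tested. *Klf5* fell from 26, 13, 15, and 11 counts in WT pre-RPMs to 3, 4, 1, and 0 in WT RPMs (log2 fold change −3.10, SE 0.51, edgeR adjusted p = 0.000158). *Klf16*, at 2.55 to 9.08 CPM over all libraries, passed the test in no comparison, and *Klf8*, *Klf14*, and *Klf17* had at most 21, 9, and 3 counts in any library.

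The genes around the factors were taken from lists of their regulators, partners, and targets. Of 8 genes of the route to *Klf2* and *Klf4* through the kinases MEKK2, MEKK3, MEK5, and ERK5 to MEF2, with *Foxo1*, 2 fell from pre-RPMs to RPMs and 0 rose in each genotype, both of them MEF2 genes. For this and the other lists at this step, the share of all genes called was 10.7% lower and 14% higher in WT, and 11.5% and 14.5% in libraries labelled *Il1rl1*-/-. *Mef2c* went from 84.7 ± 3.54 to 13.3 ± 6.20 CPM in WT (log2 fold change −2.69, SE 0.22, edgeR adjusted p = 1.69e-07) and fell by 3.71 in libraries labelled *Il1rl1*-/-. *Mef2a* went from 136 ± 6.95 to 67.5 ± 2.78 CPM in WT (log2 fold change −1.06, SE 0.10, edgeR adjusted p = 6.61e-07). The kinase genes, *Mef2d*, and *Foxo1* did not pass the test, with log2 fold changes from −0.85 (*Mef2d*) to 0.10 (*Map3k2*) in WT. Of 7 genes for enzymes that ubiquitinate or deubiquitinate KLF proteins, *Wwp1*, whose product targets KLF2 for degradation, rose from 16.3 ± 3.17 to 115 ± 18.2 CPM in WT (log2 fold change 2.76, SE 0.16, edgeR adjusted p = 3.96e-09) and by 2.83 on the log2 scale in libraries labelled *Il1rl1*-/-. *Smurf2* fell by 1.08 in the latter alone and was at −0.83 in WT, a difference between genotypes that did not pass the test of interaction (log2 difference −0.24, SE 0.20, edgeR adjusted p = 0.866).

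Partners of the factors changed in few cases. The 2 CtBP genes and 4 acetyltransferase coactivator genes (*Ep300*, *Crebbp*, *Kat2a*, *Kat2b*) had 0 calls in either direction and genotype, with log2 fold changes from −0.70 (*Ctbp2*) to 0.07 (*Kat2a*) in WT. Of 9 genes of the SIN3 complex, *Sap30*, which encodes a subunit that stabilizes it, fell from 67.3 ± 5.57 to 7.23 ± 1.75 CPM in WT (log2 fold change −3.26, SE 0.16, edgeR adjusted p = 7.54e-10). *Rbbp7*, a histone-binding subunit, rose from 16.7 ± 3.07 to 45.1 ± 1.04 CPM (log2 fold change 1.38, SE 0.13, edgeR adjusted p = 5.89e-07). Both did so in libraries labelled *Il1rl1*-/- too, at −2.91 and 1.23. Of the 4 tested genes among 9 of the SP family, whose zinc fingers bind the same GC boxes, *Sp3* fell (log2 fold change −1.20 in WT and −1.17 in libraries labelled *Il1rl1*-/-), and *Sp1* was at −0.67 in WT, under the fold threshold.

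Genes known as targets of KLF2 or KLF4 were called in both directions at the step from pre-RPM to RPM. Of 10 listed, 7 were tested in WT, of which 4 fell and 2 rose, and 8 in libraries labelled *Il1rl1*-/-, of which 5 fell and 2 rose, beside 10.7% of all genes lower and 14% higher in WT and 11.5% and 14.5% with the *Il1rl1*-/- label. *Thbd*, which encodes thrombomodulin, went from 31.3 ± 3.18 to 2.502 ± 1.53 CPM in WT (log2 fold change −3.63, SE 0.25, edgeR adjusted p = 2.89e-08), *Itgb7*, an integrin subunit for homing to the gut, from 104 ± 22.1 to 12.7 ± 7.73 CPM (log2 fold change −3.05), and *Nr4a1*, the nuclear receptor of Ly6Clo monocytes, from 129 ± 16.4 to 21.2 ± 5.86 CPM (log2 fold change −2.64). The 2 genes that rose were *Cd14*, the lipopolysaccharide coreceptor, from 4.97 ± 0.495 to 53.5 ± 7.43 CPM (log2 fold change 3.38), and *Mrc1*, the mannose receptor, from 19.5 ± 10.5 to 1042 ± 179.8 CPM (log2 fold change 5.70). *S1pr1*, the receptor for egress of lymphocytes, did not pass the test (5.98 ± 2.60 and 9.20 ± 4.67 CPM). *Mgl2*, a C-type lectin of alternatively activated macrophages, was the only listed gene that differed between genotypes, in pre-RPMs, with 1 to 6 counts in WT and 10 to 17 in libraries labelled *Il1rl1*-/- (log2 fold change 2.00, SE 0.43, edgeR adjusted p = 0.0462), a call lost in 9 alternative settings, and it was at 0 in all 4 RPM libraries labelled *Il1rl1*-/-.

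Genes of the signals that induce KLF genes were also read. Of 10 tested genes of the TGF-β pathway, which induces *Klf10* and *Klf11*, 1 rose and 0 fell in each genotype: *Tgfbr2*, the type II receptor, from 69.9 ± 9.94 to 196 ± 17.2 CPM in WT (log2 fold change 1.44, SE 0.13, edgeR adjusted p = 3.09e-07). Of 12 glucocorticoid-induced and clock genes, kin to the signals that induce *Klf9* and *Klf15*, 3 rose and 4 fell in WT. *Nr1d1*, which encodes the clock repressor REV-ERBα, and *Fkbp5*, a chaperone induced by glucocorticoids, rose (log2 fold change 2.38 and 1.38), whereas *Tsc22d3* (GILZ) and *Zbtb16*, both also induced by glucocorticoids, fell (−1.70 and −3.16). The list thus did not move in a single direction, and its median was 0.65 in WT. With the *Il1rl1*-/- label, 2 rose and 4 fell.

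Because *Klf2*, *Klf4*, and *Klf6* can themselves be induced when tissue is dissociated, 18 immediate early genes were set beside them. Their sum was 551 ± 36.4 CPM in WT monocytes, 568 ± 31.3 in WT pre-RPMs, and 225 ± 18.8 in WT RPMs, and 619, 605, and 223 in libraries labelled *Il1rl1*-/-. Of 13 tested, 9 fell and 0 rose from pre-RPMs to RPMs in WT, and 11 fell and 0 rose in libraries labelled *Il1rl1*-/-. Over all genes, 10.7% were called lower and 14% higher in WT, and 11.5% and 14.5% in libraries labelled *Il1rl1*-/-, and the median log2 fold change of the list was −1.34 and −1.46. The list included *Fosl2* (log2 fold change −2.49 in WT), *Fos* (−2.78), *Atf3* (−2.75), *Junb* (−1.64), and *Dusp1* (−1.66), while *Egr1* was at 0.43 and did not pass. The level of the heat shock genes *Hspa1a* and *Hspa1b* was at 3 counts or less in every WT pre-RPM and RPM library. The part of cell handling in the fall of the members was not tested.

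**Figure D5:**
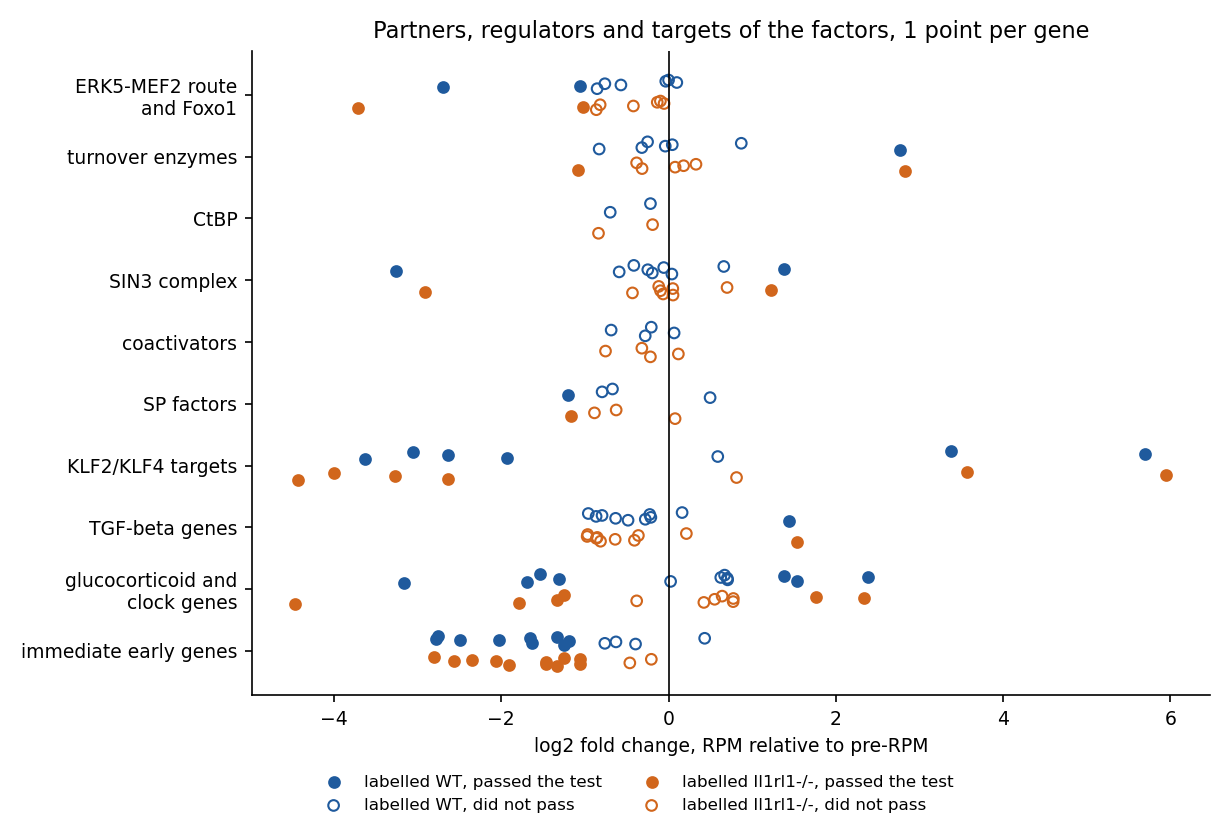
Log2 fold change from pre-RPM to RPM (horizontal axis, edgeR) of every tested gene in 10 lists of regulators, partners, targets, and signals, 1 point per gene, blue for WT and orange for libraries labelled *Il1rl1*-/-, filled where the gene passed the test; *Mgl2* in the latter is left out because it was at 0 in their RPM libraries. Immediate early genes that passed lie to the left, between −1.05 and −2.80, the targets of KLF2 and KLF4 lie on both sides, with *Mrc1* at 5.70 and 5.95, and the CtBP and coactivator genes hold open points only.

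The genes whose levels ran most like each member over the 24 libraries were found by Pearson's r of log2 CPM, given as a description because the libraries fall into 3 cell types that set most of each r. For *Klf2* these were *Sh2d3c* (r = 0.99), *Tpm4* (0.99), and *Ahnak* (0.99), and for *Klf4* *Fam129b* (0.99) and *Cd177* (0.99). *Fosl2*, from the immediate early list, was among the 3 nearest of *Klf6* (0.983, after *Ptpre* and *St8sia4* at 0.984), and *Bcl6* was the nearest of *Klf10* (0.985). *Klf13* ran with *Colec12* (0.991), *Myo1f* (0.99), and *Il17ra* (0.99), *Klf3* with *Anxa1* (0.981), and *Klf11* with *Ccl6* (0.972). *Klf7*, whose nearest genes were *Slc9a9* (0.951), *Fer* (0.948), and *Stk17b* (0.948), ran against every other member, with r from −0.58 (*Klf9*) to −0.96 (*Klf13*). *Klf9* had no close neighbour, the nearest being *Socs3* (0.835). When each library was taken relative to its group mean, the r of *Klf4* with *Klf13* was 0.77, the highest among the members, and that of *Klf2* with *Klf4* was 0.12, against 0.95 over all libraries.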

How the data were processed

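RNA was sequenced from 24 libraries, 4 mice for each of 3 sorted cell types and 2 genotype labels, made with a stranded total RNA kit. The values are counts as deposited by the authors, whole read pairs per gene, neither normalized nor filtered. Per the labels and file headers, reads were trimmed with cutadapt 2.8 and aligned with STAR 2.5.1, and pairs were counted on strand over exons joined by gene name with featureCounts 1.6.2 on GRCm38. The paper names an earlier version of cutadapt. The processing notes of the data name a genome build other than GRCm38, and the file headers were followed. A gene's reads could be lost or shared where exons of genes on the same strand overlap.

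From these counts, each pair of groups was fitted separately with edgeR 4.0.16 in R 4.3.3 (TMM scaling, filterByExpr, quasi-likelihood test), and p-values were adjusted by the Benjamini-Hochberg method over all genes tested. The SE of an edgeR log2 fold change was derived from that test, as its absolute value divided by the square root of the F statistic. Calls between cell types required an adjusted p below 0.01 together with a log2 fold change beyond 1 in either direction, those between genotypes and for interactions an adjusted p under 0.05. Levels are CPM, with CPM per kb of summed exon length for comparisons between genes, a prior count of 2 on the log2 scale, and a floor of 3 counts per library for genes at 0. Counting error only is covered by that floor. Genes named were the 9 members, every gene of the lists, and for each member the 3 genes nearest by Pearson's r, except that some genes under this rule are not reported here by name, although counts over the lists include them. The members and lists were chosen with earlier results of these data known. Alternatives were DESeq2 1.42.0, RLE size factors, other filters, all libraries in one fit, *Gm42418* left out, other call rules, each library left out in turn, and the mouse number as a block. Values were tabulated with Python 3.11.15, pandas 2.3.3, and NumPy 2.4.6, and drawn with matplotlib 3.10.9.

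The labels tie the 3 libraries of one number and genotype to one mouse, whereas mice of different genotypes share only a number. The mean correlation of deviations between same-numbered libraries was 0.0628, 0.113, and 0.0965 in WT (pre-RPM with monocyte, RPM with pre-RPM, RPM with monocyte), 0.208, 0.111, and 0.112 in the libraries labelled *Il1rl1*-/-, and 0.257, 0.092, and 0.162 between genotypes in monocytes, pre-RPMs, and RPMs. No pair of replicates was identical, with a chi-square per degree of freedom of at least 3.85 over 36 pairs. On simulated counts for WT RPMs against pre-RPMs (11034 genes tested), 40.4% of genes changed 2-fold and 95.8% of those changed 4-fold were called, and 0.0277% of unchanged genes. For the genotypes in RPMs (11001 genes tested), these shares were 69.4%, 98.9%, and 0.139%. A 2-fold change lies on the fold threshold of the calls between cell types, so that many such genes miss it whatever the depth. The calls between genotypes have no fold threshold, and the shares for 2-fold changes are therefore not comparable.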

Additional observations from a re-analysis of the deposited data

How the results depend on the processing

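For 59 log2 fold changes of the members (those with an unadjusted p under 0.1 or farthest from 0 in a comparison), 936 values were computed under settings other than the call rules. Of these, 926 kept their direction and side of the threshold, 6 lost the call, 4 gained it, and 0 reversed. The calls lost were *Klf11* from WT monocyte to RPM without WT RPM mouse 4 (−1.12), *Klf7* from pre-RPM to RPM in the libraries labelled *Il1rl1*-/- without pre-RPM mouse 2 (0.95), *Klf3* in that comparison in one fit of all libraries (−0.99) and without RPM mouse 2 (−0.99), and *Klf6* from monocyte to RPM labelled *Il1rl1*-/- without monocyte mouse 3 (−0.96) or 4 (−0.995). *Klf9* gained it in 4 settings that left out a library (−1.003 to −1.06). Of 1991 values of 135 changes of the list genes, under the same settings, 66 lost the call and 0 reversed. Leaving *Gm42418* out of library sizes raised levels by 1.41 to 1.48 times, and DESeq2 moved the median change of all its genes by 0.11 from WT monocyte to RPM. Depth limits the RPM values of *Klf4*, at 9 to 33 counts per library.

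The counts of genes called moved as follows, those of the members under the other call rules included. From monocyte to pre-RPM in WT (396 called), DESeq2 gave 694, every gene with a count 1094, at least 10 counts in every library 217, all libraries in one fit 772, an adjusted p under 0.05 alone 1624, and glmTreat 117. In the libraries labelled *Il1rl1*-/- (543 called), the corresponding counts that moved were 1060, 264, 1912, and 178, with 3 members at an adjusted p under 0.05. From pre-RPM to RPM, at least 10 counts, the looser rule, and glmTreat gave 1467, 5663, and 1660 in WT (2776 called), with 8 members by the looser rule and 5 by glmTreat (7 called), and 1542, 6182, and 1866, with 9 and 5 members (8 called), in the libraries labelled *Il1rl1*-/- (2973 called). From monocyte to RPM they gave 1470, 5343, and 1567 in WT (2769 called) and 1536, 5760, and 1878 in the libraries labelled *Il1rl1*-/- (3009 called), with 8 and 9 members by the looser rule and 3 by glmTreat in each genotype (7 called in each). Between genotypes, DESeq2 gave 26 in monocytes and 60 in RPMs, every gene with a count 139, 265, and 272 in monocytes, pre-RPMs, and RPMs, at least 10 counts 3 in monocytes and 39 in pre-RPMs, and one fit 16 and 17. For the interactions, every gene with a count gave 78 (pre-RPM against monocyte), 224 (RPM against pre-RPM), and 165 (RPM against monocyte), DESeq2 36 and 38 for the latter 2, at least 10 counts 5 and 1, and one fit 3 for RPM against pre-RPM.

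With the replicate number as a block, the genotype counts became 27, 145, and 81 in monocytes, pre-RPMs, and RPMs, and those of the last 2 interactions 36 and 21. The block changed no call of a member.

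With each library left out in turn, genes called ranged from 169 (without WT pre-RPM mouse 4) to 1041 (without WT monocyte mouse 3) for WT monocyte to pre-RPM, 336 to 813 (without monocyte mouse 2 or 3) in the libraries labelled *Il1rl1*-/-, 1 to 8 between genotypes in monocytes (without monocyte mouse 2 or 3 labelled *Il1rl1*-/-), 37 to 68 in pre-RPMs (without WT mouse 1 or 3), 19 to 38 in RPMs, and 2 to 10 for the interaction of RPM against monocyte (without WT monocyte mouse 3 or monocyte mouse 4 labelled *Il1rl1*-/-). Members called ranged from 7 to 9 from pre-RPM to RPM in the libraries labelled *Il1rl1*-/-, and from 6 to 7 from monocyte to RPM in both genotypes.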
